A study of Mus musculus with 12 samples.

Results

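The genes described here carry out fatty acid uptake and beta-oxidation, the route by which muscle takes in fat and burns it. They were chosen as 38 gene symbols by function, and 36 of them were found among the 22923 distinct symbols measured in the muscle of αB-crystallin/HspB2 knockout (KO) and wild-type (WT) mice. By step, 8 genes take up and activate fatty acids, 3 belong to the carnitine shuttle, 17 to mitochondrial oxidation and 5 to peroxisomal oxidation, and 3 are acyl-CoA thioesterases. The other 2 symbols, Cpt1b and Acsl3, occurred only in rows that join them to an overlapping neighbour, Chkb and Utp14b, and were left out of the counts.

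RNA of proximal hind limb muscle was sequenced from male FVB mice at 22 weeks of age, with 3 libraries in each of 4 groups. WT littermates (title group Flox-control) and mice lacking both αB-crystallin and HspB2 in all tissues (KO-control) were kept on normal chow. The other 2 groups, WT (Flox-highfat) and KO (KO-highfat), received from 6 weeks of age a diet with 60% of its calories from fat. The study asked how the loss of both genes bears on the muscle transcriptome under each diet. A whole limb piece holds fibres of several types, fat, vessels and blood cells, and in such bulk tissue fewer cells of a type and less RNA per cell cannot be told apart.

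The genotype label of 6 samples conflicted with their title, and groups follow the titles. The deleted genes sided with the titles in all 12 libraries, since Cryab lay between 412 and 837 FPKM in the WT libraries and between 0.845 and 1.75 FPKM in the KO libraries, and Hspb2 between 81.5 and 103 against 0.353 to 1.92 FPKM. FPKM values are read pairs per kilobase of transcript, scaled to library size, so that levels can be set side by side between genes. Several libraries stood apart. WT chow 2 and KO chow 1 and 3 held lymphocyte transcripts, with Cd3e between 6.33 and 6.58 FPKM against at most 0.335 in the other 9, and brown fat transcripts, with Cidea between 29.8 and 49.8 FPKM against 12.5 in KO chow 2 and at most 2.66 in the rest. WT high fat 1 held the least of the fat cell gene Adipoq (1.40 FPKM) and of the slow myosin Myh7 (3.20 FPKM). KO chow 3 had an inflated total owing to 1 microRNA row. The 9 skeletal muscle fibre markers summed to at least 57907 FPKM in each library, although Myh4 was listed at 0 in all libraries and Acta1 in 2.

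Long-chain fatty acids cross the muscle cell membrane with the help of CD36 and the transport protein FATP1 (Slc27a1), are bound in the cytosol by the muscle fatty acid binding protein (Fabp3), and are coupled to coenzyme A by acyl-CoA synthetases. The carnitine shuttle, made of Cpt1, the translocase Slc25a20 and Cpt2, carries the acyl group into the mitochondrion, where rounds of dehydrogenation, hydration, a second oxidation and thiolysis release acetyl-CoA, and where auxiliary enzymes prepare unsaturated chains. Peroxisomes shorten chains that mitochondria handle poorly, and thioesterases release free fatty acids from coenzyme A. Many genes of this route are known targets of the fatty acid sensing PPAR receptors.

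The route was well expressed, and all 36 genes passed the filter of at least 1 FPKM in at least 3 libraries. Mean levels over the 12 libraries ran from 2.47 FPKM for Acad10, an acyl-CoA dehydrogenase, to 875 FPKM for Fabp3. Fabp3 ranked above 99.5% of the 11945 tested genes. The most abundant member of each other step was Cpt2 in the carnitine shuttle at 50.1 FPKM, Hadhb of the trifunctional protein at 348 FPKM in mitochondrial oxidation, the thiolase Acaa1a at 24.8 FPKM in peroxisomal oxidation, and Acot13 at 125 FPKM among the thioesterases. Summed FPKM per library lay between 1774 and 3749 for the 17 mitochondrial genes and between 41.8 and 63.2 for the 5 peroxisomal genes, with the mitochondrial sum the larger in each library.

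**Figure D1:**
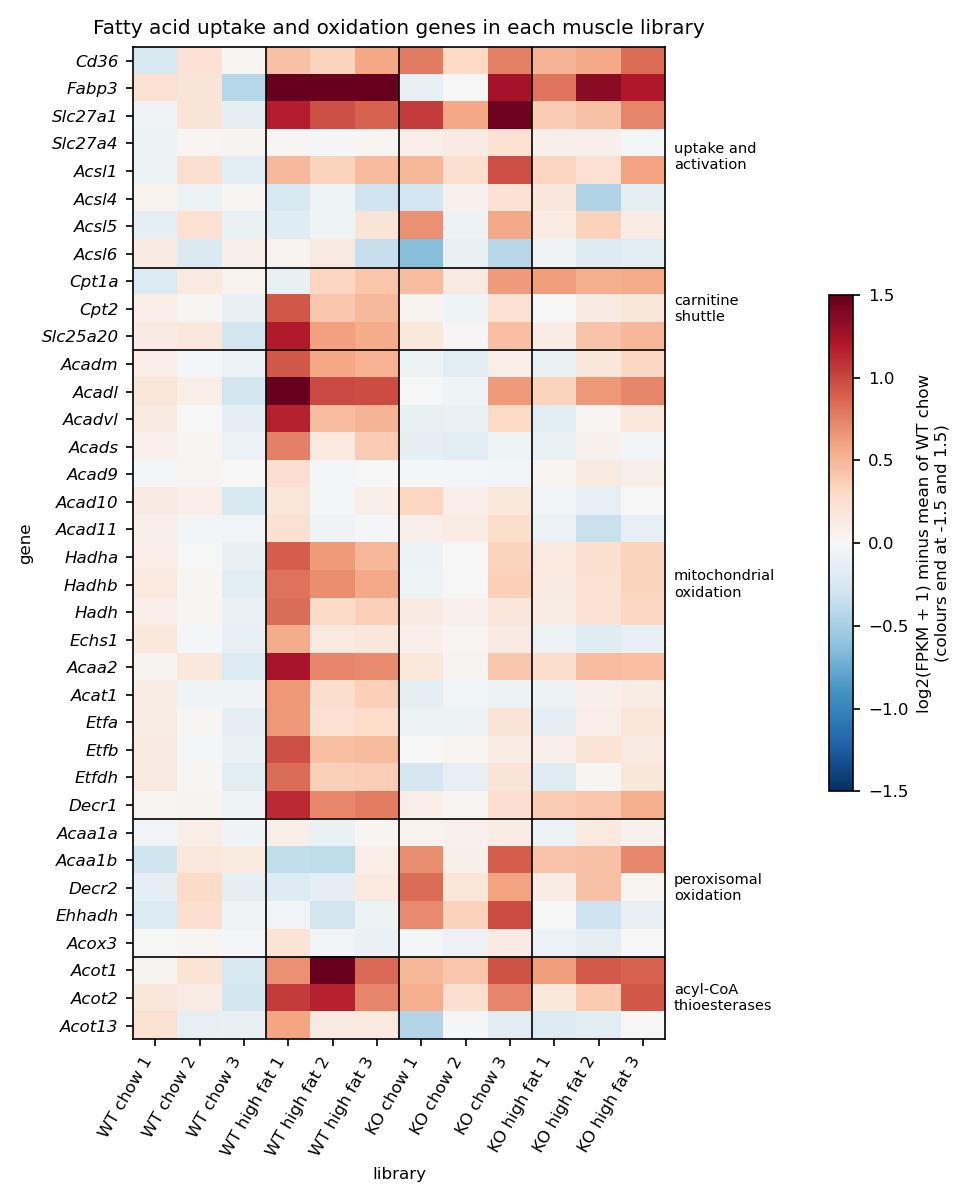
Each row is 1 of the 36 genes and each column 1 of the 12 libraries, and colour gives log2(FPKM + 1) minus the mean of the 3 WT chow libraries, from blue (lower) to red (higher). Rows are grouped by step. The WT high fat columns are red for most carnitine shuttle and mitochondrial genes, most strongly in WT high fat 1, whereas the peroxisomal rows are reddest in KO chow 1 and 3.

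Promoter sequence is shown for 4 genes with log2 fold changes between 0.68 and 1.17 between diets in WT mice: the dehydrogenases Acadl (long chain) and Acadm (medium chain) and the neighbouring thioesterases Acot1 and Acot2. Each line gives the 250 bases before the RefSeq transcription start in build GRCm38.p6, 5′ to 3′ on the strand of the gene. They lie at chr1:66863310-66863559 (minus strand), chr3:153944644-153944893 (minus), chr12:84009252-84009501 (plus) and chr12:83987611-83987860 (plus). Capitals mark matches on either strand to AAGGTCA, a nuclear receptor motif, to the GC box GGGCGG and to CCAAT.
Acadl: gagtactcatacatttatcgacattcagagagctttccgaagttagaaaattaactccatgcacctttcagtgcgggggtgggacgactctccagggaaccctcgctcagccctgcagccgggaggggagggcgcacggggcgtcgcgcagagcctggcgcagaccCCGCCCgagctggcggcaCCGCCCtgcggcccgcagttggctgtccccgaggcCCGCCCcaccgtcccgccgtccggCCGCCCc
Acadm: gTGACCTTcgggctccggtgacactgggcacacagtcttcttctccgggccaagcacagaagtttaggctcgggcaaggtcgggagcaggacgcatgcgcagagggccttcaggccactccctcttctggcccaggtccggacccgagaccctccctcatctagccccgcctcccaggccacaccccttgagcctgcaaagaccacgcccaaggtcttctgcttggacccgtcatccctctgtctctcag
Acot1: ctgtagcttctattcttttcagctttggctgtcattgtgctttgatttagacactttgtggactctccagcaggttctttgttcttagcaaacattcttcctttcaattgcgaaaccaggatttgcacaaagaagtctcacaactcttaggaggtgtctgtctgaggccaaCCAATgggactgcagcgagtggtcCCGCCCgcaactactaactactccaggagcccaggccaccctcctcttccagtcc
Acot2: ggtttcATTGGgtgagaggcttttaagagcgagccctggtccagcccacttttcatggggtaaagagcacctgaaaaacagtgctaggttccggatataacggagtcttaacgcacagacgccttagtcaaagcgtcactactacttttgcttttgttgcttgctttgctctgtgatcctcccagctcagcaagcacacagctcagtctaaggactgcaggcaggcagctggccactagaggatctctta

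Acadl held 4 GC boxes, Acadm 1 match to AAGGTCA, Acot1 1 GC box and 1 CCAAT, and Acot2 1 CCAAT. RefSeq windows existed for 32 of the 38 members, 37 windows in all, against 32851 windows of all genes. GGGCGG occurred in 67.6% of the member windows and 32.7% of all windows, and CCAAT in 51.4% and 33.9%. AAGGTCA occurred in 2 member windows, those of Acadm and Acsl6, or 5.41%, against 4.08% of all. The direct repeat of AGGTCA with 1 base of any kind between the copies, the core of PPAR response elements and a pattern that can overlap AAGGTCA, was in 0 of 37 member windows and in 0.0335% of all windows, and TATAAA was in 0 against 12.4%. These matches describe 250 bases of letters only. Members were richer in G and C, with a median of 58.8% against 52.4%.

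The first comparison asked what the high fat diet did in WT mice. Higher values with high fat feeding, at an unadjusted p under 0.05, were found for 14 of the 17 mitochondrial, 2 of the 3 shuttle and 4 of the 8 uptake genes. The median log2 fold change was 0.43 over the 36 genes against -0.01 over all tested genes. Decr1, the mitochondrial dienoyl-CoA reductase needed for unsaturated fatty acids, rose and was the 1 gene of the 36 past an adjusted p of 0.05 in limma, where 0.0502% of all tested genes were called higher and 0.0502% lower. At an unadjusted p under 0.05, 22 of the 36 were higher and 0 lower, where 4.42% of all tested genes were higher and 3.70% lower. In 21 of the 36 genes all 3 high fat libraries lay above all 3 chow libraries, and in 0 below, against 6.20% and 6.88% of all tested genes.

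Decr1 (chr4:15917240-15945507, minus strand) measured 54.3, 54.7 and 50.6 FPKM in the WT chow libraries and 117, 88.4 and 91.2 FPKM in the WT high fat libraries. The groups did not overlap, and WT high fat 1 was the highest of its group. Its log2 fold change was 0.87 ± 0.11 (SE, n = 3 per group), a 1.83-fold difference, with an adjusted p of 0.0183 in limma. The call was lost without any 1 of the WT chow libraries, with adjusted p values in limma of 0.107, 0.0649 and 0.1001 without replicates 1, 2 and 3, while the fold change stayed between 0.74 and 0.95 in all 12 fits that leave out 1 library.

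Among the uptake genes, Fabp3 had the largest difference. It measured 491, 481 and 311 FPKM on chow and 1878, 1491 and 1281 FPKM under high fat feeding in WT mice, with no overlap. This was a log2 fold change of 1.87 ± 0.33 (adjusted p = 0.0802, limma). Slc27a1, the transport protein FATP1, measured 25.9, 30.8 and 24.4 FPKM on chow and 62.3, 53.5 and 50.4 FPKM under high fat feeding. Its groups did not overlap either, with a log2 fold change of 1.01 ± 0.19 (adjusted p = 0.0911, limma). Both genes, with Acadl and Hadhb, passed the threshold once KO chow 3 was left out of the shared fit, which then called 5 members. The scavenger receptor Cd36 averaged 155 ± 24.5 FPKM (SD, n = 3) on chow and 212 ± 18.4 on high fat diet, and the synthetase Acsl1, the main long-chain form of muscle, 80.5 ± 12.2 and 108 ± 6.10 FPKM. Log2 fold changes of these 2 genes were 0.45 and 0.43, with adjusted p values of 0.392 and 0.525 in limma. The other transport and synthetase genes, Slc27a4, Acsl4, Acsl5 and Acsl6, had log2 fold changes between -0.20 and 0.01, with adjusted p values from 0.828 to 0.991 in limma.

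In the carnitine shuttle, Cpt2, the inner membrane transferase, measured 45.7, 43.2 and 39.4 FPKM on chow and 82.7, 56.7 and 60.3 FPKM under high fat feeding. The translocase Slc25a20 averaged 35.1 ± 5.67 FPKM on chow and 61.9 ± 16.0 on high fat diet. Both were higher in each high fat library than in any chow library, with log2 fold changes of 0.61 ± 0.14 and 0.78 ± 0.19 (adjusted p = 0.132 and 0.157, limma). Cpt1a, the liver form of the outer membrane transferase, was low in this muscle, between 3.81 and 5.11 FPKM on chow and between 4.13 and 6.38 FPKM under high fat feeding, and its groups overlapped. The muscle form Cpt1b was measured only together with Chkb, and that joined row was at 159, 141 and 131 FPKM on chow and 247, 194 and 181 FPKM under high fat feeding.

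All 17 mitochondrial oxidation genes had a log2 fold change above 0 in WT mice (46.4% of all tested genes), with a median of 0.52, and 14 of them an unadjusted p under 0.05. The dehydrogenases that open each round act on chains of different length. Acadl, the long-chain enzyme, measured 154, 144 and 112 FPKM on chow and 397, 268 and 266 FPKM under high fat feeding, a log2 fold change of 1.17 ± 0.22 (adjusted p = 0.0906, limma). Acadm, the medium-chain enzyme, went from 206 ± 13.8 to 332 ± 52.3 FPKM, a log2 fold change of 0.68 ± 0.14 (adjusted p = 0.110). The very-long-chain enzyme Acadvl had 0.71 ± 0.19 and the short-chain enzyme Acads 0.43 ± 0.13, with adjusted p values in limma of 0.204 and 0.299. Acad9, which also serves complex I assembly, and the less characterized Acad10 and Acad11 had log2 fold changes of 0.08, 0.08 and 0.05, and their groups overlapped. The chow and high fat libraries thus separated for the 4 classical straight-chain dehydrogenases and overlapped for the other 3.

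Downstream of the dehydrogenases, both subunits of the trifunctional protein had similar differences. Hadhb, the thiolase subunit, measured 315, 290 and 254 FPKM on chow and 503, 463 and 424 FPKM under high fat feeding, and Hadha, the hydratase and dehydrogenase subunit, averaged 105 ± 7.61 and 169 ± 25.3 FPKM. Log2 fold changes were 0.70 ± 0.13 and 0.68 ± 0.13 (adjusted p = 0.0906 and 0.0966, limma). These 2 genes lie head to head on chromosome 5, with 272 bases between their RefSeq starts. The thiolase Acaa2 measured 115, 125 and 96.7 FPKM on chow and 263, 186 and 182 FPKM under high fat feeding, with a log2 fold change of 0.89 ± 0.16 (adjusted p = 0.0802, limma). The short-chain enzymes Hadh, Echs1 and Acat1 had smaller values, 0.50, 0.29 and 0.42. The electron acceptors of the dehydrogenases, Etfa, Etfb and the oxidoreductase Etfdh, had 0.38, 0.63 and 0.52, and adjusted p values between 0.118 and 0.418 in limma.

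Of the 5 peroxisomal members, 0 had an unadjusted p under 0.05 between diets in WT mice, 0 separated the groups, and log2 fold changes lay between -0.22 for the thiolase Acaa1b and 0.02 for the oxidase Acox3. Acaa1a averaged 24.2 ± 1.53 FPKM on chow and 24.4 ± 1.63 on high fat diet, which leaves a difference of 0.01 in log2 level with a 95% interval of ± 0.18. Other genes listed as peroxisomal did not all share this. The 17 on a further list summed to between 563 and 632 FPKM in WT chow and between 700 and 884 FPKM in WT high fat libraries. Such a sum follows its most abundant genes, and a place on the list does not mean that a product acts only in peroxisomes. Ech1, described below, rose. At an unadjusted p under 0.05 in limma, Eci2 and Nudt7 were higher (0.69 and 0.58) and Hacl1 and Crot lower (-0.33 and -0.23). The bifunctional enzyme Ehhadh was at 3.71, 5.46 and 4.24 FPKM on chow and 4.26, 3.49 and 4.15 under high fat feeding. Among the thioesterases, mitochondrial Acot2 measured 8.49, 8.12 and 6.0 FPKM on chow and 16.5, 17.9 and 13.0 FPKM under high fat feeding, and cytosolic Acot1 averaged 1.35 ± 0.356 and 4.11 ± 1.97 FPKM. Their log2 fold changes were 0.98 ± 0.21 and 1.07 ± 0.24 (adjusted p = 0.118 and 0.131, limma), whereas Acot13 had 0.29 with overlapping groups. Acot1 and Acot2 are near copies, with 9.32% and 17.1% of their 100-base transcript stretches shared, so reads may have been split between them. The same holds for Acaa1a and Acaa1b, with 7.21% and 19.3%.

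**Figure D2:**
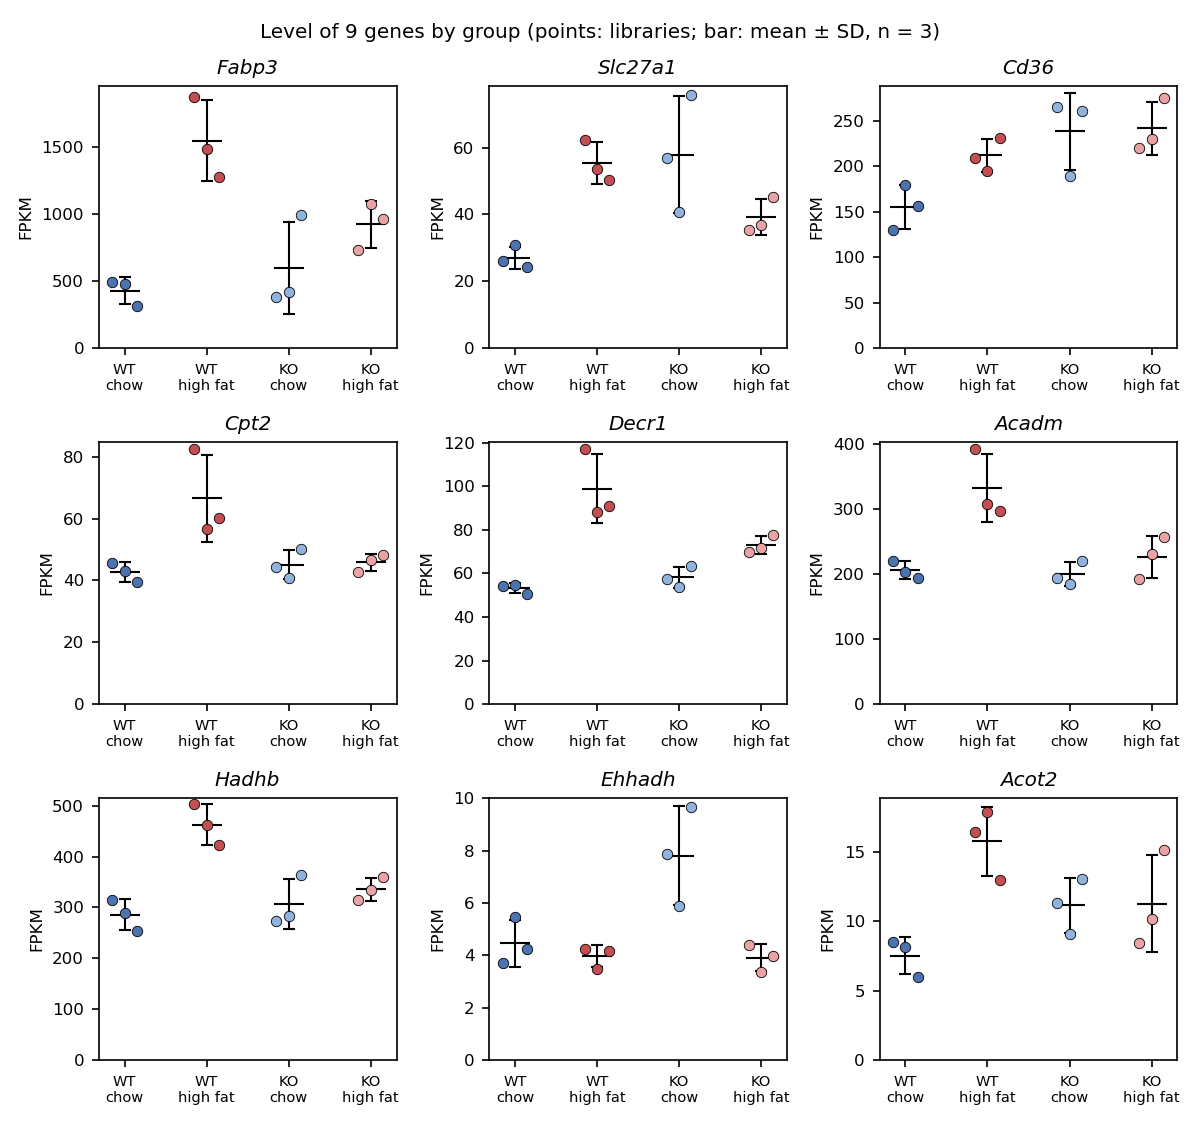
Each panel shows the FPKM of 1 gene (vertical axis from 0) in the 4 groups, with 1 point per library and the mean ± SD of 3 libraries in black. Fabp3, Cpt2, Decr1, Acadm, Hadhb and Acot2 are highest in WT mice on high fat diet, while Slc27a1 is high in both WT high fat and KO chow and Ehhadh is highest in KO chow.

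WT chow 3 was the lowest of its group for 16 of the 17 mitochondrial genes. WT high fat 1 was the highest of its group for 26 of the 36 genes, among them all 17 mitochondrial genes. Its part in the result was examined by leaving it out, which gave a median of 0.34 in place of 0.43, 20 genes in place of 22 at an unadjusted p under 0.05, and still 1 called gene, Decr1, with 0.74 ± 0.09 and an adjusted p of 0.0249 in limma. Respiratory chain genes, which mark mitochondrial content, had log2 fold changes above 0 in all 13 listed genes, with a median of 0.29. Of these, 2 were higher at an unadjusted p under 0.05, against 4.42% of all tested genes. Per 100 FPKM of respiratory chain genes, the 17 mitochondrial oxidation genes summed to 19.2, 22.2 and 19.0 FPKM in the WT chow libraries and to 23.8, 27.8 and 26.0 FPKM in the WT high fat libraries. All 3 WT high fat libraries were above all 3 WT chow libraries in this ratio. In KO mice it was 26.6, 20.8 and 29.9 on chow and 22.7, 25.2 and 25.4 on high fat diet, so that the KO diets overlapped and KO chow 1 and 3 reached the WT high fat range or passed it. Summed slow fibre markers ranged from 562 to 1699 FPKM in WT chow and from 406 to 3262 FPKM in WT high fat, with WT high fat 1 the lowest. White fat cell markers had a median log2 fold change of -1.19 over 10 genes and macrophage markers of -0.74 over 5. Summed fat cell markers overlapped, at 2494 to 4334 FPKM in WT chow and 2645 to 4978 FPKM in WT high fat libraries. These sums did not follow Adipoq, since WT high fat 1, the lowest in Adipoq, summed to 4547 FPKM. Summed macrophage markers also overlapped, at 95.9 to 206 FPKM in WT chow and 109 to 142 FPKM in WT high fat libraries. The 2 of 4 red blood cell markers found in the files summed to between 2.48 and 4.49 FPKM in WT chow and between 9.86 and 22.2 FPKM in WT high fat libraries, without overlap. The part of these fibre and cell types in the result was not tested.

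**Figure D3:**
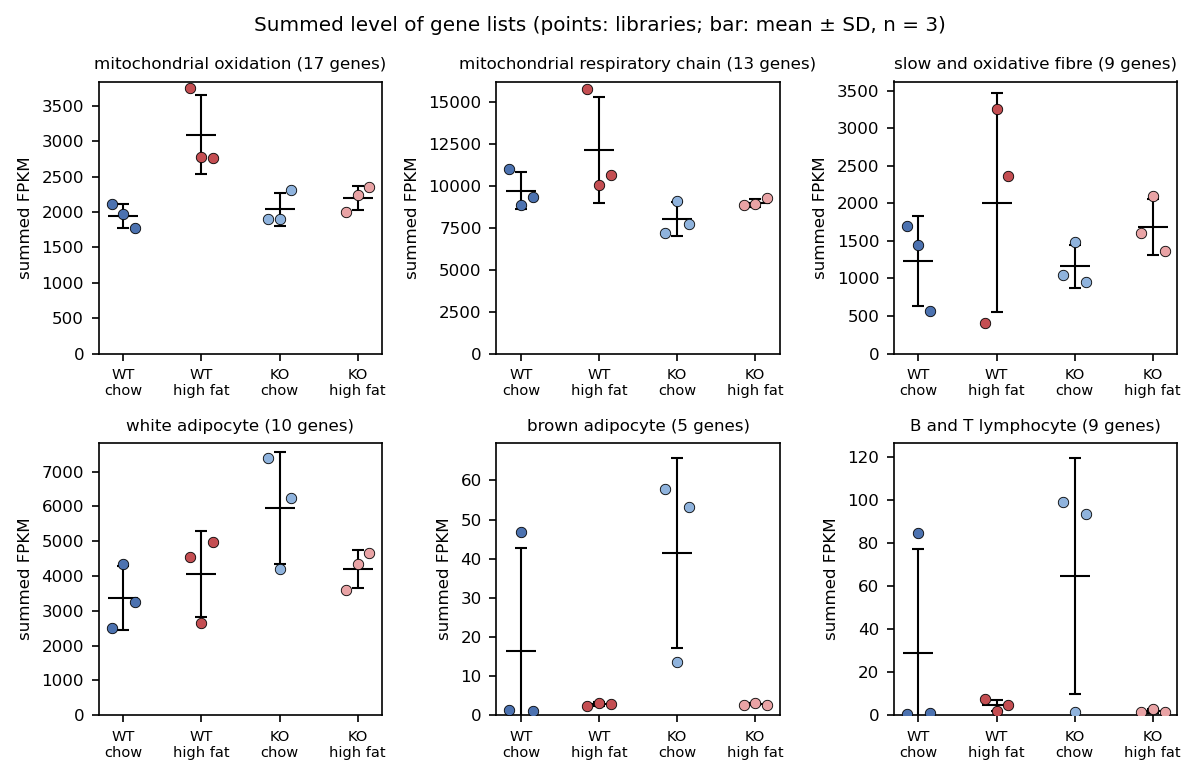
Each panel shows the summed FPKM of a gene list (vertical axis from 0) in the 4 groups, with 1 point per library and the mean ± SD of 3 libraries, cut at 0. The 17 mitochondrial oxidation genes sum highest in the 3 WT high fat libraries, WT high fat 1 is also highest in respiratory chain genes and lowest in slow fibre genes, and brown fat and lymphocyte genes stand out in WT chow 2 and KO chow 1 and 3.

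The same diet comparison in KO mice, made on 6 other libraries, gave a median log2 fold change of 0.05 for the 36 genes, against 0.03 over all tested genes. In limma 0 of the 36 were called, as were 0% of all tested genes. At an unadjusted p under 0.05, 2 were higher (6.56% of all tested genes) and 4 lower (4.73%). Log2 fold changes were above 0 in 21 of the 36 genes and in 56.0% of all tested genes. KO chow and KO high fat libraries separated in 7 genes, 2 higher and 5 lower, against 10.7% and 6.14% of all tested genes.

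Fabp3 in KO mice measured 384, 421 and 993 FPKM on chow and 731, 1076 and 965 FPKM under high fat feeding. KO chow 3 was within the range of the high fat libraries, and the log2 fold change of 0.75 ± 0.33 had an adjusted p of 0.441 in limma. Decr1 measured 57.3, 54.0 and 63.5 FPKM on chow and 69.7, 71.5 and 77.9 FPKM under high fat feeding, with no overlap. Its log2 fold change was 0.32 ± 0.11 (adjusted p = 0.431, limma). Acadl measured 136, 129 and 212 FPKM on chow and 170, 213 and 225 FPKM under high fat feeding, again with KO chow 3 within the range of the high fat group. The 17 mitochondrial genes had a median log2 fold change of 0.10, with values between -0.33 and 0.38, and the 3 shuttle genes lay between 0.02 and 0.16.

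The lowest values in KO mice belonged to a peroxisomal and an uptake gene. Ehhadh measured 7.86, 5.88 and 9.67 FPKM on chow and 4.40, 3.38 and 3.97 FPKM under high fat feeding, with no overlap and a log2 fold change of -0.82 ± 0.16 (adjusted p = 0.161, limma). Slc27a1 measured 57.0, 40.8 and 75.9 FPKM on chow and 35.3, 37.0 and 45.3 FPKM under high fat feeding. The 2 groups overlapped, since KO high fat 3 was above KO chow 2, and the log2 fold change was -0.51 ± 0.19 (adjusted p = 0.431). Acad11 measured 34.3, 35.0 and 39.1 FPKM on chow and 30.3, 25.5 and 29.6 FPKM under high fat feeding, all lower on high fat diet, with -0.33 ± 0.10 (adjusted p = 0.390, limma). KO chow 3 was the highest KO chow library for 28 of the 36 genes, and it and KO chow 1 carried the lymphocyte transcripts and the most brown fat transcripts. Without these 2 libraries and WT chow 2, KO chow was 1 library only, so that the values are differences from that library. They were -0.06 for Slc27a1, -0.49 for Ehhadh and 1.12 for Fabp3. KO chow 2, the library kept, also held brown fat transcripts, at 13.6 FPKM summed against 2.49 to 3.01 FPKM in the KO high fat libraries. These values are therefore not free of brown fat.

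**Figure D4:**
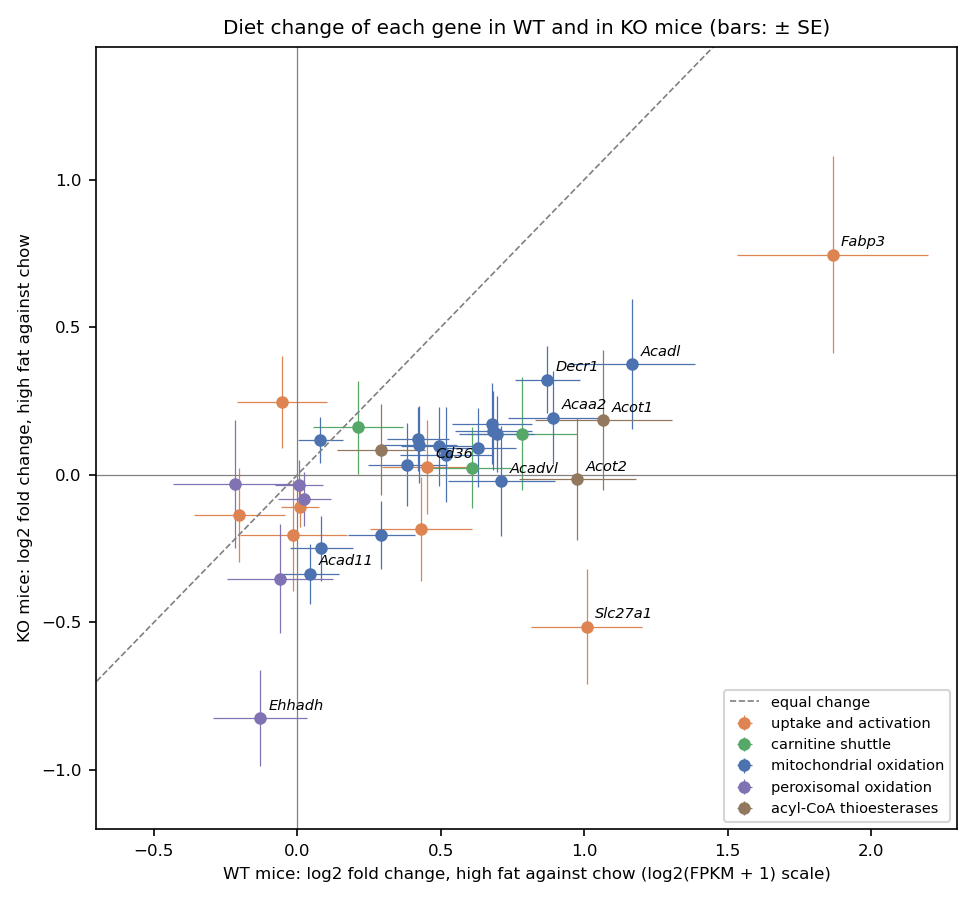
Each point is 1 of the 36 genes, placed by its log2 fold change between high fat diet and chow in WT mice (horizontal) and in KO mice (vertical), with bars of ± 1 SE and colour by step. The dashed line marks equal change. Of the 36 points 32 lie below the line. Of the 22 genes higher in WT mice at an unadjusted p under 0.05 (limma), 17 lie above 0 in KO mice. Slc27a1 is among those that do not.

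Whether diet acted differently by genotype was tested as an interaction. In limma 0 of the 36 genes passed an adjusted p of 0.05, as did 0% of all tested genes, while 18 of the 36 had a lower diet log2 fold change in KO than in WT mice at an unadjusted p under 0.05 and 0 a higher one, where 2.70% and 3.55% of all tested genes did. The median interaction was -0.44 in log2 units against 0.03 over all tested genes, and -0.50 over the mitochondrial genes. Slc27a1 had the lowest statistic, -1.52 ± 0.28 (adjusted p = 0.408), followed by Decr1 at -0.55 ± 0.16 and Acot2 at -0.99 ± 0.29 (adjusted p = 0.593 and 0.599). The highest statistics were those of Acsl6, Acaa1b and Acad9, at 0.30, 0.18 and 0.04. Without the 3 chow libraries with lymphocyte transcripts, which leaves 1 KO chow and 2 WT chow libraries, the median was -0.37. With 1 KO chow library the spread of that group is taken from the other groups, so no count of genes is given for that fit.

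Genotypes were then compared within each diet, in comparisons that share the 4 groups above. On normal chow 0 of the 36 genes were called in limma (0.0586% of all tested genes). At an unadjusted p under 0.05, 10 were higher and 1 lower in KO mice, against 6.73% and 9.93% of all tested genes, and the median log2 difference was 0.12 against -0.03. The higher genes belonged to uptake (4 of 8), the shuttle (1 of 3), peroxisomal oxidation (3 of 5) and the thioesterases (2 of 3), and 0 of the 17 mitochondrial genes were among them. The libraries separated with KO higher in 8 of the 36 genes and KO lower in 1, against 8.15% and 10.2% of all tested genes.

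On chow, Slc27a1 was higher in each KO library than in any WT library, at 57.0, 40.8 and 75.9 against 25.9, 30.8 and 24.4 FPKM, a log2 difference of 1.03 ± 0.19 (adjusted p = 0.193, limma). Cd36 measured 130, 179 and 157 FPKM in WT and 265, 189 and 260 FPKM in KO chow libraries, likewise without overlap (0.61 ± 0.16, adjusted p = 0.263, limma). Ehhadh also separated the genotypes, with a log2 difference of 0.68 ± 0.16 (adjusted p = 0.263). The one lower gene was Acsl6, a synthetase better known from brain, at 19.2, 15.1 and 18.8 FPKM in WT and 11.0, 16.3 and 12.9 FPKM in KO mice, with overlap. Fat cell markers summed to between 2494 and 4334 FPKM in WT chow and between 4204 and 7400 FPKM in KO chow libraries, with overlap. Of the 10, 1 was higher at an unadjusted p under 0.05, against 6.73% of all tested genes. The limit given above for these sums holds here too. Brown fat markers were low in 2 WT chow libraries (1.15 and 1.27 FPKM summed) and at 46.8 in WT chow 2 and 13.6 to 57.8 FPKM in the KO chow libraries. Leaving out WT chow 2 and KO chow 1 and 3 left 1 KO chow library, taken to vary like the other groups, and 2 WT chow libraries. Slc27a1 was then at 0.68 ± 0.18 and Cd36 at 0.41 ± 0.19, and the median over the 36 genes was 0.04 in place of 0.12. With KO chow 2 left out instead, Slc27a1 was called (1.26, adjusted p = 0.0320, limma). That fit kept KO chow 1 and 3, with their lymphocyte and brown fat transcripts.

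On high fat diet, most mitochondrial genes had lower values in KO than in WT mice. In limma 0 of the 36 genes were called (0.109% of all tested genes), and at an unadjusted p under 0.05, 20 were lower and 2 higher, against 6.45% and 9.79% of all tested genes. The median log2 difference was -0.36 against -0.01. Of the 17 mitochondrial genes 14 were lower at that level, with a median of -0.45, and in 14 all KO libraries lay below all WT libraries. Over all 36 genes the groups separated in 19 with KO lower and 2 with KO higher, against 10.7% and 13.0% of all tested genes.

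Acadm had the lowest statistic on high fat diet, at 392, 308 and 296 FPKM in WT and 192, 230 and 256 FPKM in KO mice, a log2 difference of -0.55 ± 0.14 (adjusted p = 0.0967, limma). Acadvl measured 406, 251 and 258 FPKM in WT and 161, 186 and 203 FPKM in KO mice, with -0.70 ± 0.19 (adjusted p = 0.111). The Decr1 difference was -0.42 ± 0.11 (adjusted p = 0.112, limma). In each of these 3 genes the highest KO library was below the lowest WT library. Fabp3 was also lower in all KO libraries, by -0.75 ± 0.33 in log2 level (adjusted p = 0.299), and the joined Chkb and Cpt1b row was at 142, 150 and 171 FPKM in KO high fat libraries, all under the WT values given above. Echs1, the short-chain hydratase, averaged 128 ± 21.7 FPKM in WT and 95.0 ± 3.36 in KO mice, and Acads 77.5 ± 16.9 and 55.7 ± 3.39 FPKM.

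A few genes went the other way on high fat diet. Acaa1b measured 4.63, 4.59 and 6.78 FPKM in WT and 8.78, 8.84 and 11.0 FPKM in KO mice, with no overlap and a log2 difference of 0.75 ± 0.22 (adjusted p = 0.130, limma). Cpt1a was at 4.13, 5.91 and 6.38 FPKM in WT and 7.56, 7.04 and 7.14 FPKM in KO mice, also without overlap (0.37 ± 0.16, adjusted p = 0.281, limma). Decr2, the peroxisomal counterpart of Decr1, had a log2 difference of 0.25 ± 0.19 with overlap, and Cd36, at 212 ± 18.4 and 241 ± 29.6 FPKM, likewise overlapped (0.19 ± 0.16). Respiratory chain genes had lower values in KO mice as well, with a median log2 difference of -0.39 over 13 genes. Of these, 8 were lower at an unadjusted p under 0.05, against 6.45% of all tested genes. White fat cell markers had a median log2 difference of 2.16 over 10 genes, with 6 higher at that level, against 9.79% of all tested genes. Their sums overlapped, at 2645 to 4978 FPKM in WT and 3607 to 4667 FPKM in KO high fat libraries. As said above, these sums did not follow Adipoq, so their overlap does not measure fat cell content. The 5 macrophage markers summed to between 109 and 142 FPKM in WT and between 157 and 326 FPKM in KO high fat libraries, without overlap and with a median log2 difference of 1.24. Red blood cell markers overlapped, at 9.86 to 22.2 FPKM in WT and 3.24 to 12.1 FPKM in KO high fat libraries. In oxidation per 100 FPKM of respiratory chain genes, given above, the genotypes overlapped on high fat diet. The part of these other cell types in the result was not tested. Without WT high fat 1 the lower genes numbered 12 in place of 20 and the median was -0.25.

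Averaged over genotypes, Decr1 rose on high fat diet by 0.60 ± 0.08 (adjusted p = 0.0295, limma) as the 1 called member, where 0.0586% of all tested genes were called. At an unadjusted p under 0.05, 17 were higher and 1 lower, against 7.96% and 5.94%. That call was lost in 8 of the 12 fits without 1 library, with adjusted p values up to 0.113. Averaged over diets, 0 of the 36 genes were called between genotypes (0.862% of all tested genes). At an unadjusted p under 0.05 KO mice had 6 higher and 8 lower members, against 13.1% and 13.4% of all tested genes. The lowest adjusted p values in limma were those of Acaa1b, Cd36 and Cpt1a, which were higher in KO mice by 0.65, 0.40 and 0.39 (0.0593, 0.0763 and 0.0771). Without KO chow 2, 6 genes were called, namely these 3 with Acsl5, Decr2 and Ehhadh. In that fit the KO chow group was KO chow 1 and 3, the KO libraries with lymphocyte transcripts and the most brown fat transcripts. Without WT high fat 3 Acaa1b alone was called.

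The other genes of the pathway were read from 6 further lists with 87 entries, of which 75 were tested. In the WT diet comparison 1 was called, and at an unadjusted p under 0.05, 12 were higher and 4 lower, where the shares over all tested genes were 4.42% and 3.70%. The called gene was Ech1, a dienoyl-CoA isomerase that, like Decr1, handles unsaturated chains. It measured 146, 152 and 145 FPKM on chow and 278, 243 and 239 FPKM under high fat feeding, and rose by 0.77 ± 0.09 in log2 level (adjusted p = 0.0125, limma). In KO mice Ech1 was at 170, 159 and 177 FPKM on chow and 186, 198 and 192 FPKM under high fat feeding, a log2 fold change of 0.19 ± 0.09 (adjusted p = 0.442, limma), and averaged over genotypes it rose by 0.48 (adjusted p = 0.0227). Pcca, a subunit of propionyl-CoA carboxylase, which handles the last unit of odd chains, fell by 0.37 in KO mice averaged over diets (adjusted p = 0.0418, limma). The KO diet comparison, both genotype comparisons within a diet and the interaction called 0 of the 75. At an unadjusted p under 0.05, 1 was higher and 8 lower between diets in KO mice (6.56% and 4.73% of all tested genes), and 11 and 5 between genotypes on chow (6.73% and 9.93%). On high fat diet 9 were higher and 17 lower in KO mice (9.79% and 6.45%), and in the interaction 1 and 12 (3.55% and 2.70%).

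Of the regulators and their targets, Pdk4, the kinase that restrains glucose oxidation, measured 111, 106 and 96.5 FPKM in WT chow and 316, 399 and 183 FPKM in WT high fat libraries, a log2 fold change of 1.44 ± 0.33 (adjusted p = 0.137, limma). In KO mice it measured 136, 251 and 348 FPKM on chow and 261, 186 and 208 FPKM under high fat feeding, with overlap. The uncoupling protein gene Ucp3 had log2 fold changes of 0.54 in WT and -0.03 in KO mice (adjusted p = 0.472 and 0.966, limma). Ppara, the receptor itself, measured 2.94, 2.63 and 2.81 FPKM in WT and 1.86, 1.23 and 1.76 FPKM in KO high fat libraries, without overlap (-0.55 ± 0.14, adjusted p = 0.0963). The coactivator Ppargc1a lay between 6.65 and 7.40 FPKM in WT and between 3.36 and 6.48 FPKM in KO mice on high fat diet (-0.35 ± 0.21, adjusted p = 0.443, limma). Angptl4, an inhibitor of lipoprotein lipase, was higher in KO mice by 1.53 ± 0.56 on chow and 1.39 ± 0.56 on high fat diet (adjusted p = 0.281 and 0.251, limma).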

How the data were processed

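The authors sequenced RNA of hind limb muscle in paired 100-bp reads (Illumina HiSeq2000) and deposited 1 FPKM value per row and library for 12 libraries, with gene symbols that can recur between rows, and the submitters' processing notes name TopHat2 2.0.8b, Cuffdiff 2.1.1 and mm10, without their roles. The unit was read from the values, since the file headers give none. Depth in reads is unknown, so no counting interval is given. Summed FPKM lay between 499509 and 691621 in 11 libraries.

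The 38 symbols, the gene lists and the tests were chosen with earlier results of these data known. A symbol listed more than once was represented by its most abundant row. Genes with at least 1 FPKM in at least 3 libraries (11945) were tested as log2(FPKM + 1) with limma (version 3.58.1, run in R 4.3.3), fitting an intensity trend and 4 group means over all 12 libraries, 8 residual degrees of freedom and Benjamini-Hochberg adjustment over all tested genes at 0.05. A fold change on this scale understates that of low genes. Count tests were not used, since the files hold no counts. Nothing beyond the methods' phrase on independent samples describes the replicates, and p-values measure the spread between these libraries. The script was tested on simulated data. Genes given per library are those called, the 3 highest and 3 lowest statistics of each comparison, the most abundant of each step and the regulators named, and other members are given by group means, a choice that for Hadha, Slc25a20, Acot1, Echs1, Acsl1 and the joined rows was made after their values were seen. Some genes that this rule names are not reported here. Positions are from GENCODE M21 (GRCm38) and promoters from RefSeq (GRCm38.p6). The alternatives were a pseudocount of 0.1, no filter, a replicate block, only the groups compared, the genotype label, median-of-ratios scaling, quantile normalization, leaving out each library, and, chosen after seeing the data, leaving out 3 chow libraries.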

Additional observations from a re-analysis of the deposited data

Results flagged for a closer look

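In 2 genes all KO libraries lay above all WT libraries on chow and below them on high fat diet. Of all tested genes, 8.15% had the first separation and 10.7% the second, and the share with both was not computed. For Slc27a1 the interaction was -1.52 in log2 units, from 1.03 ± 0.19 on chow to -0.49 ± 0.19 on high fat diet. For Acad11 it was -0.38, from 0.15 ± 0.10 to -0.23 ± 0.10. Its chow groups barely separated, at 34.18 FPKM in WT chow 1 and 34.25 FPKM in KO chow 1. The test of the difference itself did not pass in limma, with adjusted p values of 0.408 and 0.708. Without the 3 chow libraries with lymphocyte transcripts, which leaves 1 KO chow library taken to vary like the other groups, the Slc27a1 interaction was -1.17 ± 0.22 (adjusted p = 0.999, limma).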

How the results depend on the processing

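The call of Decr1 in WT mice was kept with a pseudocount of 0.1, without the filter and under both other scalings (adjusted p between 0.0162 and 0.0347, limma). It was lost, leaving 0 called members, with the replicate block (adjusted p = 0.0592) and with only the groups compared (0.158), both at the same log2 fold change of 0.87, with the genotype label (0.34, adjusted p = 0.633) and without the 3 chow libraries with lymphocyte transcripts (0.89, adjusted p = 0.0950), a fit with 2 WT chow libraries and 1 KO chow library. Averaged over genotypes 0 members were called with the replicate block (Decr1 0.0964), the genotype label (0.438) and without those libraries (0.256). Same-numbered libraries correlated between -0.806 and 0.387 in their deviations from the group means, and the replicate numbers were not taken to pair the libraries. Leaving out each library in turn gave 0 to 5 called members for diet in WT mice, 0 to 1 for genotype on chow, 0 to 2 for diet averaged over genotypes and 0 to 6 for genotype averaged over diets.

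Grouped by the genotype label, which the deleted genes contradict in 6 libraries, median log2 fold changes were 0.0400 for diet in WT mice, 0.38 for diet in KO mice, 0.32 for genotype on high fat diet, 0.30 for the interaction and 0.15 for genotype averaged over diets. Signs then turned for Acaa1b (0.21) in WT mice and Slc27a1 (0.12) in KO mice, for Acadm (0.55), Acadvl (0.64), Decr1 (0.39), Decr2 (-0.31), Cpt1a (-0.29) and Acaa1b (-0.41) on high fat diet, and for Slc27a1 (0.0737), Decr1 (0.39), Acot2 (0.47) and Acaa1b (-0.57) in the interaction. The small interaction of Acad9 was -0.00125 with median-of-ratios scaling and -0.0115 to 0.12 without 1 library, and that of Acaa1b -0.0601 to 0.36. The causes were not tested.

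With 3 libraries a group, 95% intervals of a log2 fold change between 2 groups reached ± 0.15 to ± 0.73 for single members. Those of the interaction reached ± 0.21 to ± 1.04. Depth in reads is unknown.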
